A study of Mus musculus with 6 samples.

Results

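Unnamed loci shorter than 2 kb were examined in mouse C3H myotubes, the multinucleated cells that form when C3H myoblasts fuse, after knockdown of the long noncoding RNA (lncRNA) H19. The loci are rows of the authors' table of siH19 against siCon that carry no gene symbol and whose span, the end minus the start, is under 2000 bp. They number 226 of the 3019 rows. Another 2549 rows carry a symbol, and 244 unnamed rows span 2 kb or more. Both groups were differentiating C3H cultures transfected at 40 h and harvested 48 h later, on day 4, siCon with a control siRNA and siH19 with an siRNA against H19. Each group had 3 libraries, made from total RNA after removal of rRNA, without selection for poly(A). For each row the table gives 1 log2 FPKM per group, the log2 of fragments per kilobase of locus, scaled to the number of mapped fragments. These are the authors' values over a group's libraries, so that no spread between replicates or depth is available, and no test was run here. The authors' own fold changes and adjusted p-values were not used. Differences are given as siH19 minus siCon in log2 FPKM. The table lists only rows that the authors called different, hence a difference in itself was a condition of listing.

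RNA polymerase III makes tRNAs and Y RNAs, among other short RNAs, while the U3 and U4 RNAs are made by RNA polymerase II. Y RNAs are bound by the Ro60 protein, encoded by Trove2, and the U4 small nuclear RNA is part of the spliceosome. Transcript assemblers join overlapping reads into loci and name those that meet a supplied gene model. A locus without a name may therefore be an RNA outside the supplied genes, a stretch that continues past the end of a gene, or a nearly identical copy of a gene to which reads also align. Libraries without poly(A) selection also keep RNAs that have no poly(A) tail. The H19 row, the target of the siRNA, had 11.20 in siCon and 7.50 in siH19. Of 10 genes listed as markers of myotubes, 8 were in the table in 7 rows, all higher in siH19 as were 62.8% of all rows, among them Myog, a transcription factor of muscle differentiation (7.79 and 9.22), and Acta1, skeletal muscle actin (11.30 and 11.86). None of the 5 markers of proliferating or fibroblast-like cells (Mki67, Top2a, Pdgfra, Thy1 and Dcn) was listed, and the table leaves their levels unknown. In RNA from whole cultures, fewer cells of a type and less RNA per cell cannot be told apart.

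The position of 46 of the 226 loci overlaps a sequence in the GENCODE transcripts or RefSeq promoters of GRCm38, the assembly also called mm10, and 12 are covered whole. The sequences printed here belong to loci of high level for which the reference holds a small RNA gene or the whole locus, and to a locus at the floor of the table in siH19, a log2 FPKM of −10. Rny1 and Rny3 encode Y RNAs, and Gm24265 is a U4-type small nuclear RNA gene, all shown as annotated in GENCODE. XLOC_028363 and XLOC_006638 are the loci themselves, named as in the table and read on the strand of the transcript that holds them. Capitals mark the 12-base stretch that Rny1 and Rny3 share, and in XLOC_006638 the bases that do not match the mRNA of Odc1.
Rny1: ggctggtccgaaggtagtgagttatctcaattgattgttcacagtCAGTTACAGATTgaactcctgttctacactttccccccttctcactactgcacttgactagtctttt
Rny3: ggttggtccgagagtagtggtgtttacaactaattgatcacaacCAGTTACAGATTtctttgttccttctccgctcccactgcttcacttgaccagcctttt
Gm24265: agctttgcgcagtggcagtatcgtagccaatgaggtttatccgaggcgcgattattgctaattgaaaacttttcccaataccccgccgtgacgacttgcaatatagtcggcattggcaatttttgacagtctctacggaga
XLOC_028363: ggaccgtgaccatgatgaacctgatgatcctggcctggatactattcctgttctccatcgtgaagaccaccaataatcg
XLOC_006638: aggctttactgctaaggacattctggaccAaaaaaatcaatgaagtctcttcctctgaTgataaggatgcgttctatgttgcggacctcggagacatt

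Of the 226 loci, 183 were higher and 43 lower in siH19, against 62.8% and 37.2% of all rows in these directions. At 1.5-fold or more, 176 (77.9%) were higher and 39 (17.3%) lower, against 37.4% and 16.9% of all rows of the table. The median difference was 1.38, a 2.6-fold higher level, whereas it was 0.92 over the 244 unnamed loci of 2 kb or longer and 0.41 over the rows with a symbol. With 1 FPKM added to both groups 77 loci were higher and 11 lower at 1.5-fold, with a median difference of 0.44, and among loci that reached 0 in the higher group 78 were higher and 20 lower. The levels of the short loci were low. The median was −0.92 in siCon (quartiles −2.46 and 1.32) and −0.40 in siH19 (quartiles −1.05 and 2.37), against 3.30 and 3.52 for rows with a symbol. In 117 of the 226 loci the level was below 0, that is under 1 FPKM, in both groups. A row of low level enters such a list with a large difference only: the smallest difference in either direction was 0.78 among these 117 loci and 0.42 among the other 109. Of the 117 low loci 98 (83.8%) were higher in siH19. Of the 172 rows with a symbol that were below 0 in both groups 68 (39.5%) were higher, with a median difference of −0.68. The 117 loci and the 172 rows share this limit but were not matched in level. Their medians in siCon were −2.44 and −0.98, and in siH19 the rows with a symbol had the lower median, −1.36. Of the 129 unnamed loci of 2 kb or longer that were below 0 in both groups, 101 (78.3%) were higher, with a median of 0.94.

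**Figure D1:**
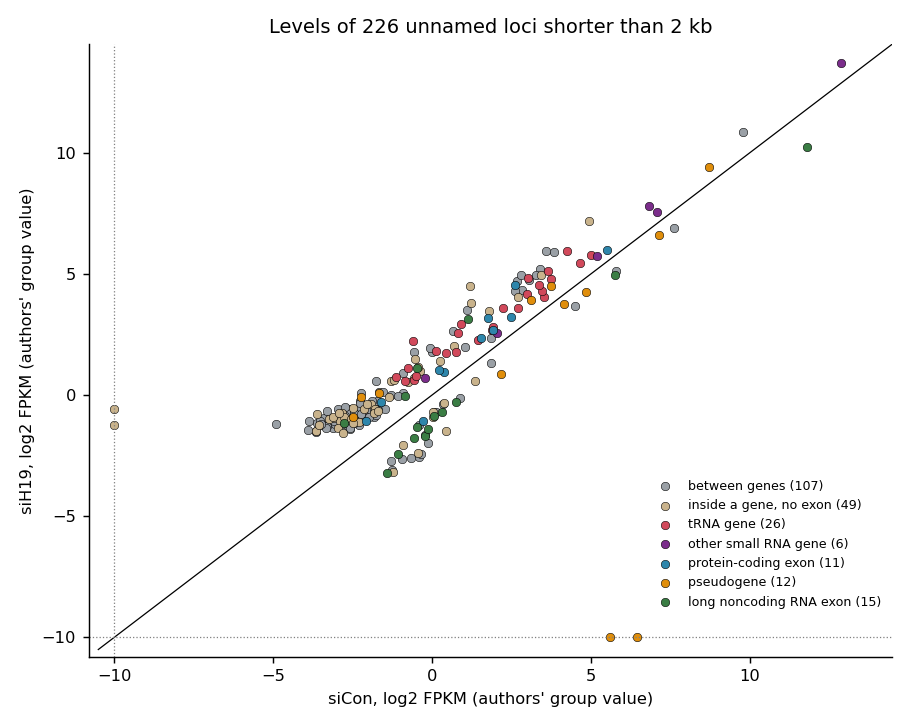
Authors' log2 FPKM in siCon (x axis) and siH19 (y axis) of the 226 loci, one point per locus, coloured by the annotated gene the locus overlaps. The solid line marks equal levels and dotted lines the floor of −10. Most points lie above the line, and 4 lie on the floor of one group.

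Shorter loci had higher levels, on a scale that is itself per length. The 24 loci under 200 bp had a median of 3.39 in siCon and 4.80 in siH19, and the 49 loci of 1500 to 1999 bp a median of −1.98 and −0.92. Across the 222 loci above the floor in both groups, log2 span and log2 FPKM in siCon had a Pearson r of −0.71, as a description across loci that share the same libraries. For a given number of fragments a shorter locus gets a higher value. Fragment counts and lengths were not available, so the number of fragments behind the values of short loci is unknown. The share that was higher did not follow length in the same way: it was 20 of 24 under 200 bp, 36 of 41 from 200 to 499 bp, 28 of 40 from 500 to 999 bp, 62 of 72 from 1000 to 1499 bp and 37 of 49 from 1500 to 1999 bp. The shortest locus was XLOC_028363 with 79 bp and the longest XLOC_018862 with 1985 bp (−0.91 in siCon and −2.05 in siH19). Just inside the span limit were also XLOC_023350 (1962 bp, −1.65 and 0.08) and XLOC_010405 (1959 bp, −1.79 and −0.55). Just outside were XLOC_004182 (2009 bp, −0.63 and −1.55) and XLOC_019923 (2013 bp, −2.80 and −0.89).

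The loci lay on 21 chromosomes, with 25 on chromosome 6 (15.1% of its rows), 19 on chromosome 2 (7.95%), 19 on chromosome 3 (12.0%) and 13 on chromosome 18 (15.7%). They were sorted by the annotated gene they overlap. In all, 107 lay between genes and 49 inside a gene but outside its exons in GENCODE, 26 held a tRNA gene of RefSeq and 6 another small RNA gene, 15 overlapped an exon of a lncRNA gene, 12 a pseudogene and 11 an exon of a protein-coding gene. The direction differed between these classes. All 26 tRNA loci and all 6 other small RNA loci were higher in siH19, as were 90 of 107 between genes, 41 of 49 inside genes and 10 of 11 at protein-coding exons. Of the 15 at lncRNA exons 4 were higher and 11 lower, and the 12 pseudogene loci split into 6 and 6. Thus lncRNA exons held 11 of the 43 lower loci and 4 of the 183 higher ones.

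**Figure D2:**
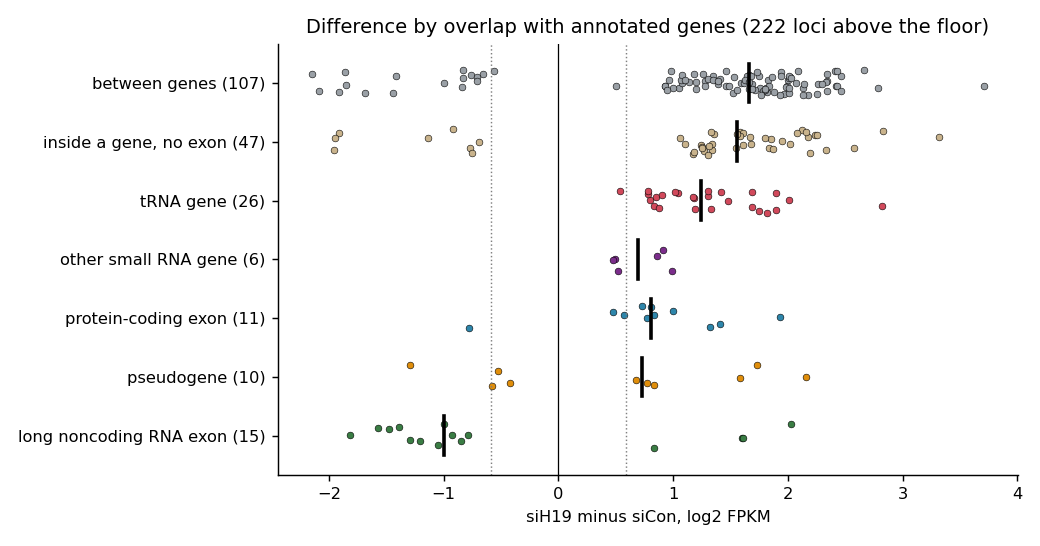
Difference of log2 FPKM (siH19 minus siCon, x axis) of the 222 loci above the floor in both groups, one point per locus, by the annotated gene overlapped, with the number of loci in brackets. Black bars are medians and dotted lines 1.5-fold. All tRNA and other small RNA loci lie to the right of 0, and most lncRNA exon loci to the left.

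The locus with the highest level was Rny1, which encodes the Y1 RNA. XLOC_022904, at chr6:47788079-47788175, covers bases 6 to 102 of the 112-base Rny1 gene. Its log2 FPKM was 12.87 in siCon and 13.73 in siH19, a 1.82-fold higher level. Rny3 lies in XLOC_022087, 6.2 kb from that locus, at chr6:47781415-47781925, a locus of 511 bp that holds all 102 bases of the gene, and had 6.84 and 7.83. On the other side of Rny3, XLOC_022903 (chr6:47780484-47780686) overlaps no annotated gene and had 2.82 and 4.95, the largest difference of the 3, 2.13. All 3 were thus higher in siH19. Trove2, whose protein binds Y RNAs, was a row of the table with 4.09 in siCon and 3.75 in siH19, a difference in the other direction.

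The differences of the 6 small RNA loci other than tRNA loci, Y RNA loci included, ranged from 0.48 to 0.99. XLOC_020700, at chr5:115489462-115490799, holds a pair of U4-type genes, Gm24265 and Gm24407, which have 139 of 141 bases in common, so that reads that cover neither of the differing bases cannot be assigned to one of them. It had 7.09 in siCon and 7.57 in siH19. XLOC_001991 (chr10:40258457-40259445) holds Rnu3a, which encodes the U3 small nucleolar RNA that acts in processing of rRNA, and had 5.21 and 5.73. All 6 differences were below the median over the 226 loci.

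The 26 tRNA loci held 29 of the 408 nuclear tRNA genes of RefSeq, while no unnamed locus of 2 kb or longer held one and 2 lay within rows with a symbol. They coded for 17 amino acids with 19 anticodons and lay on 12 chromosomes, with 5 loci each on chromosomes 3, 11 and 13. The median level was 1.92 in siCon and 2.87 in siH19, and the difference ranged from 0.54 to 2.82, a 1.45-fold to 7.06-fold higher level. The genes were spread over families, with 3 each for Leu, Gln and Ala and 1 or 2 for every other amino acid. The highest tRNA level in siH19 was that of XLOC_003540, which holds a Gly gene with anticodon ACC (n-TGacc1) and had 4.27 and 5.96. XLOC_005171 (Cys, anticodon GCA) had 5.01 and 5.79, and XLOC_014053 (Lys, anticodon CTT) 4.67 and 5.45. XLOC_017992 (Gln, anticodon CTG, chr3:96340924-96341221) showed the largest difference, with −0.59 in siCon and 2.23 in siH19. Another Gln locus on this chromosome, XLOC_017993 with the same anticodon, had 3.03 and 4.85.

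**Figure D3:**
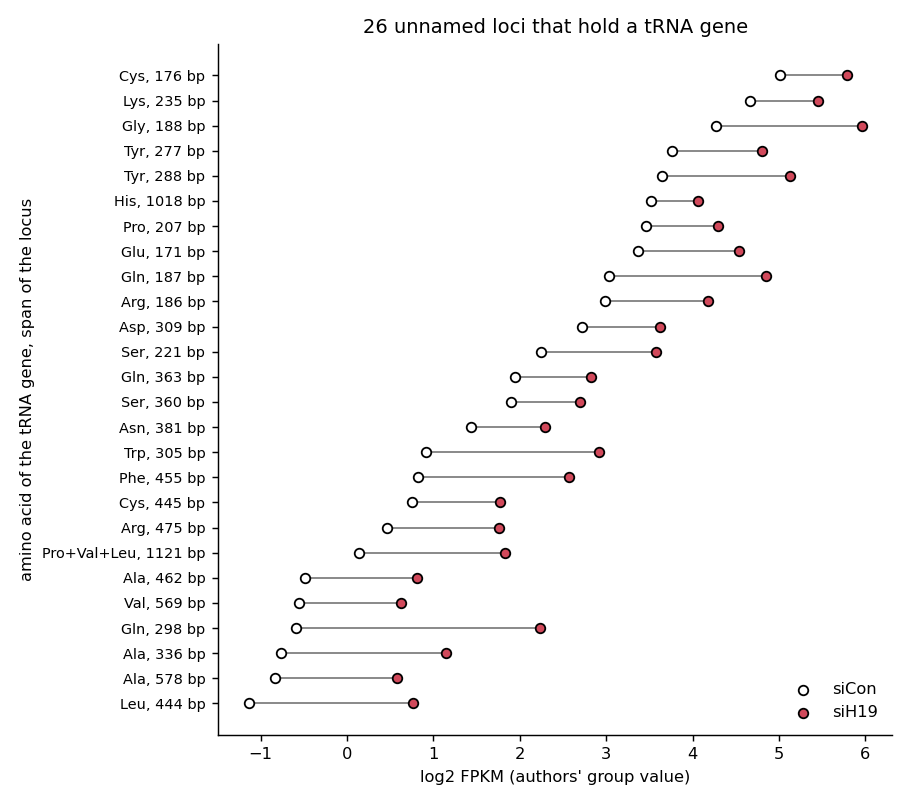
Authors' log2 FPKM in siCon (open) and siH19 (filled) of the 26 loci that hold a tRNA gene, each labelled by amino acid and span and ordered by the level in siCon. The filled point lies to the right of the open one in every locus, and shorter loci tend to lie further up.

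These loci were longer than the tRNA genes in them. The genes measured 72 to 93 bases and the loci 171 to 1121 bp, and 18 of the 29 genes lay at one edge of the locus (within 10 bp of its end, or reaching past it), the rest of the locus extending to the other side. In XLOC_005171, for instance, 107 bp lay to the left of the gene and the locus stopped 3 bp short of the gene's right end. The RefSeq table used gives no strand for tRNA genes, so that the extending side could not be named as the 5′ or the 3′ side. The 8 tRNA loci under 250 bp had medians of 3.42 and 4.70, and the 18 longer ones 0.78 and 2.26. The difference was similar in both, with medians of 1.18 and 1.30. The median gap from a tRNA locus to the nearest row with a symbol was 180.0 kb, and 3 of the 26 lay within 10 kb of one.

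Of 48 genes listed for transcription by RNA polymerase III and handling of small RNAs, 4 were rows of the table, 2 higher and 2 lower. The polymerase subunit genes Polr3e (1.26 in siCon and 1.98 in siH19) and Polr3f (3.95 and 3.53) went in opposite directions. Elac1, which encodes a tRNA 3′ processing endonuclease, had 0.25 and 0.80. The other genes of this list were not called by the authors, and their levels were not analysed here.

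Of short loci outside annotated small RNA genes, 20 spanned 100 to 249 bp, and 17 of these were higher in siH19, with medians of 2.94 and 4.62 and a median difference of 1.74. XLOC_004706, at chr11:53484735-53484925, had the largest difference towards siH19 among loci that reached 0 in a group, with 1.19 and 4.51, a 9.99-fold higher level. It lies within a RefSeq lncRNA gene, Gm19835, and the nearest row with a symbol, Shroom1, 17.0 kb away, was lower in siH19 (0.64 and 0.16). XLOC_029028, at chr9:113735194-113735309, had 4.95 and 7.20. It lies in the RefSeq lncRNA gene Gm38623, 6.2 kb before the start of Clasp2, a gene for a microtubule-binding protein (2.79 and 3.27). XLOC_015737, at chr2:27035641-27035772, had 3.60 and 5.94, and XLOC_008296 on chromosome 14, 8.82 Mb from the nearest row with a symbol, 3.84 and 5.91. These 4 were all higher by more than 2 in log2 FPKM and none overlaps an exon in GENCODE. XLOC_027890 (246 bp) lies in an intron of Csk, which encodes a kinase that inhibits Src, and had 1.23 and 3.81. The remaining loci among the 10 that reached 0 in a group with the largest differences towards siH19, XLOC_000607, XLOC_014231, XLOC_018410, XLOC_029051 and XLOC_022903, lay between genes and were higher by 2.13 to 2.43. No sequence for these loci was in the reference used.

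In all, 22 loci reached a log2 FPKM of 5 in a group, 15 of them higher and 7 lower in siH19, and 7 of the 22 overlapped no annotated exon or tRNA gene. The highest of these 7 was XLOC_020184, an 89-bp locus at chr5:12155118-12155206, with 9.78 in siCon and 10.85 in siH19, 228 kb from the nearest protein-coding gene, Sema3d, and 1.21 Mb from the nearest row with a symbol, Sema3a (3.41 and 4.04). A pair of loci near the taste receptor gene Tas2r121 on chromosome 6 went the other way. XLOC_023413 (chr6:132686987-132687117) had 7.61 and 6.90, and XLOC_023410, 2.0 kb from it, 5.80 and 5.14. Among lower loci that reached 5 and were above the floor of the table in both groups, XLOC_028363 had the largest difference. Its sequence is given above. The 79 bp at chr9:11517255-11517333, in an exon of the lncRNA gene Gm47034, had 11.81 and 10.24, a 0.337-fold level. It was also the shortest of the 226 loci, with the limit on short loci given above.

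Some of the short loci occurred in runs. A run was counted, whatever its place relative to genes, where 3 or more loci followed each other with gaps under 50 kb. There were 7 such runs with 26 loci, and all 26 were higher in siH19, against 81.0% of the 226 loci and 62.8% of all rows. Neighbouring loci of a run are not independent of each other. On chromosome 6, 6 loci spread over 16.1 kb lie between the ends of Rassf8 and Bhlhe41, from 202 bp beyond the annotated 3′ end of Rassf8 to 344 bp beyond the 3′ end of the Bhlhe41 row. Their levels ranged from −3.09 to −1.87 in siCon and from −1.08 to −0.24 in siH19, and their differences from 1.46 to 2.25. Bhlhe41, which encodes a transcriptional repressor of the circadian clock, had 4.36 and 4.71, and Rassf8 was not a row of the table. Another 4 loci begin 130 bp beyond the 3′ end of the Tead4 row, which itself ends 4.4 kb past the annotated gene. They had −2.22 to −1.65 in siCon and −0.40 to 0.08 in siH19. A pair of these 4 overlaps the pseudogene Gm8703, and 552 bases of one of them, XLOC_023349, matched 18 other genes by sequence. Tead4, a TEA-domain transcription factor that binds muscle gene promoters, had 4.71 and 5.19. The 2 loci beyond Tmem8c (Mymk), which encodes myomaker, a membrane protein required for myoblast fusion, had −3.02 and −3.30 in siCon and −1.01 and −0.64 in siH19, and the row itself 7.85 and 8.59. Within the Bhlhe41 loci, the Tead4 loci and the pair beyond Tmem8c, every siCon level lay below every siH19 level of the same set. The third locus of the Tmem8c run, XLOC_015737, lies nearer to Slc2a6 and has the higher levels given above. A run on chromosome 11 joined 2 tRNA loci and a locus in an Irgm1 exon (XLOC_003544, 2.61 and 4.54). Irgm1, an interferon-inducible GTPase gene, had 4.90 and 5.25.

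**Figure D4:**
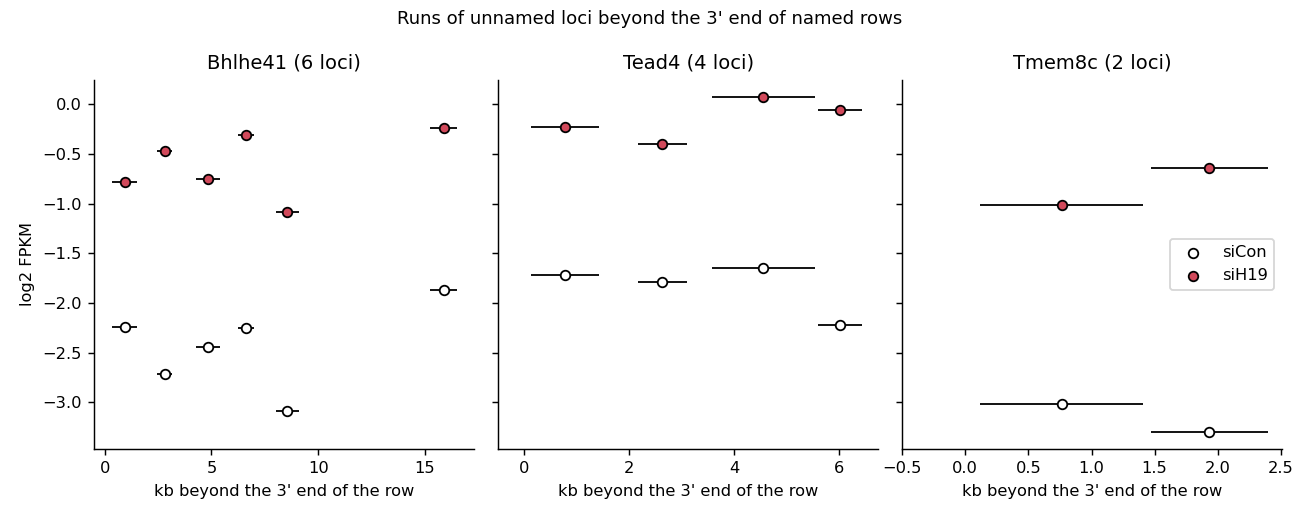
Authors' log2 FPKM in siCon (open) and siH19 (filled) of runs of unnamed loci, against the distance in kb from the 3′ end of the Bhlhe41, Tead4 and Tmem8c rows. Horizontal bars show the extent of each locus. The siH19 level is higher in all loci of the 3 runs, with no steady decline with distance.

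Other runs had no such neighbour in the table. On chromosome 6, 4 loci at chr6:58727092-58741519 begin 31.4 kb beyond the 3′ end of Abcg2, which was not a row, and lie more than 1 Mb from the nearest row with a symbol, Pyurf, which was lower in siH19 (1.43 and 0.91). Their levels were −3.48 to −2.25 in siCon and −1.18 to −0.24 in siH19. On chromosome 3, 3 adjacent loci at chr3:13326016-13330530, 141 kb before the start of Ralyl, had −3.15 to −2.59 and −1.39 to −0.74. The nearest row with a symbol, Car13, 1.31 Mb away, was also lower in siH19 (5.97 and 5.53).

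None of the 226 loci overlapped a row with a symbol. The median gap to the nearest such row was 80.6 kb (quartiles 6.02 and 412 kb) and ranged from 7 bp, beside Kif5b, to 8.82 Mb, and 1 locus, on the Y chromosome, had no such row on its chromosome. The gap was a median of 116 kb for the unnamed loci of 2 kb or longer. Any row, named or not, was a median of 7.57 kb away, so that many short loci lay close to other unnamed ones. Of 225 loci, 142 (63.1%) had the direction of the nearest row with a symbol. The share was largest at short distances. It was 57 of 65 (87.7%) within 10 kb, 35 of 57 (61.4%) from 10 to 100 kb, 35 of 75 (46.7%) from 100 kb to 1 Mb and 15 of 28 (53.6%) beyond 1 Mb. The neighbours' own directions changed with distance too: 56 of 65 neighbours and 58 of 65 loci were higher within 10 kb, against 32 of 75 neighbours and 60 of 75 loci from 100 kb to 1 Mb. Within 10 kb, 52 of 55 unnamed loci of 2 kb or longer (94.5%) had the direction of their neighbour.

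**Figure D5:**
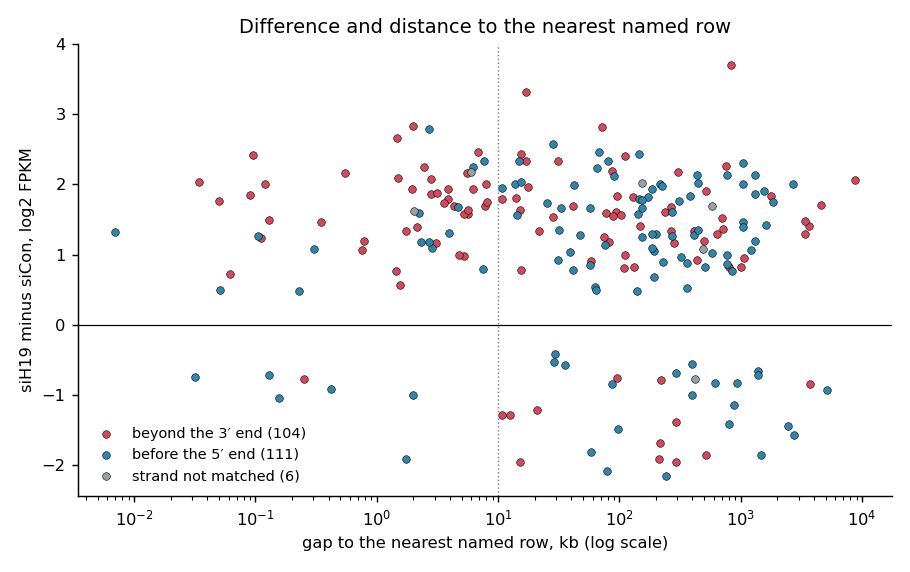
Difference of log2 FPKM (siH19 minus siCon, y axis) against the gap to the nearest row with a symbol in kb (x axis, log scale) for the 221 loci above the floor with such a row on their chromosome. Colours give the side of that row, and the dotted line marks 10 kb. Red points left of the line, beyond a 3′ end, lie above 0 with 1 exception.

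The side of the neighbouring row went with the direction within 10 kb. Beyond the 3′ end of a row with a symbol lay 42 loci, of which 41 were higher in siH19, and 39 of these 42 lay beside a row that was higher too. Before the 5′ end lay 21 loci, 15 of them higher, and 15 of the 21 neighbours were higher, 12 of them beside a higher locus. The 42 loci belonged to 30 rows, and taking the nearest locus of each row left 29 of 30 higher. The difference was larger in the locus than in its neighbour in 36 of 42, with medians of 1.76 and 0.67. The level was far lower, a median of −2.24 in siCon against 4.36. Rows of low level enter the list with large differences only, so the listing itself bears on this order. The 42 loci include XLOC_023980, which was at the floor in siCon. The side also went with the direction around annotated protein-coding genes, whether in the table or not. Within 5 kb beyond their 3′ ends 40 of 41 loci were higher, and within 5 kb before their 5′ ends 24 of 38. Over all distances 30 of 98 loci on the 5′ side of the nearest protein-coding gene were lower, and 9 of 99 on the 3′ side.

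Some of the rows with a locus beyond the 3′ end are genes of muscle, named here after their values had been seen. Beyond Tnnc1, the slow and cardiac troponin C gene (10.32 and 11.15), XLOC_007942 had −2.77 and −0.90. This locus also lies in an intron of Nisch, whose row was higher by 0.40. Beyond Srl, the gene of the calcium-binding protein sarcalumenin (higher by 0.91), XLOC_010651 had −3.61 and −1.15. Both loci were below 1 FPKM in both groups, where only large differences are listed, and both had a larger difference than their gene. The exceptions in direction were XLOC_022242 beyond Vamp8 and XLOC_023980 beyond Josd2, both higher in siH19 beside rows that were lower (7.05 and 6.19, and 5.48 and 4.77). The only lower locus of the 42 was XLOC_017433 in the 3′ untranslated region of Ndst4 (−0.28 and −1.06), whose row was lower as well (1.60 and 0.92).

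Loci at exons of protein-coding genes are also named after their values had been seen, apart from Myl1 and Irgm1. Of the 11, 8 lay in an annotated 3′ untranslated region, in Cd47, Gatad2b (a pair of loci), Ndst4, Dnajb14, Hnrnpr, Pcgf3 and Cbl, and 7 of these 8 were higher in siH19. For 7 of the 11 the gene itself was a row of the table, and all 7 had its direction. Gatad2b, a subunit gene of the NuRD chromatin complex, had 3.23 and 3.94, and its loci XLOC_017161 and XLOC_017162 had 2.48 and 3.21, and 1.94 and 2.71. At the other end of a gene, XLOC_001201 (chr1:66945286-66945557) covers a 5′ exon of Myl1, the fast skeletal myosin light chain gene, 229 bp from its row. It had 5.50 and 5.98, and the Myl1 row 11.22 and 11.64.

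Pseudogene loci with a near-identical parent in the table had the direction of that parent. XLOC_006526 on chromosome 12 covers the pseudogene Mylf-ps, whose 309 bases are 99.4% identical to Myl1, and had 8.74 in siCon and 9.42 in siH19. XLOC_002800 covers a copy of Tdg, a DNA glycosylase gene, that is 98.0% identical over 391 bases. It had 4.84 and 4.26 and the Tdg row 4.90 and 4.42. XLOC_013366 covers 370 bases that are 99.7% identical to Dst, a cytoskeletal linker gene, and had 3.11 and 3.94 against 5.95 and 6.45 in the Dst row. All 3 thus went with the row of the parent gene, and at such identity reads cannot be assigned to one copy with certainty. XLOC_016733, at the pseudogene Vamp7-ps, was lower (7.16 and 6.63), and XLOC_029571, at Gm16397, as well (2.17 and 0.88). The search by sequence found no similar gene for the former, and the latter was not searched.

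The lowest value in the table was a log2 FPKM of −10, called the floor here. All 4 rows at the floor were short unnamed loci, 2 in each group, for which no fold is given. XLOC_014213, at chr19:42160078-42160624 in the pseudogene Gm6937, had 6.47 in siCon and was listed at −10 in siH19. Of its bases with a known sequence 64 are identical to Rpl15, a ribosomal protein gene. The search by sequence found 24 similar genes for this locus, and the pseudogenes Gm5292 and Gm8885 were identical over 67 bases. XLOC_006638, at chr12:115993226-115993323 in the pseudogene Gm9260, had 5.62 in siCon and −10 in siH19. Its 98 bases match the coding sequence of Odc1, the first enzyme of polyamine synthesis, with 1 mismatch and 1 additional base, the capitals in the sequence above. The search by sequence found 10 similar genes for this locus, and the pseudogenes Gm7993, Gm17709 and Gm9115 had the same identity as Odc1. Neither Rpl15 nor Odc1 was a row of the table. XLOC_007081 (−10 and −1.25) and XLOC_023980 (−10 and −0.57) were at the floor in siCon and under 1 FPKM in siH19, and both lie inside annotated genes outside their exons. The table does not say whether fragments were absent at these loci or an estimate failed.

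Some of the lncRNA exon loci lay next to the start of a gene. XLOC_005618 and XLOC_005619, in exons of Gm4419, lie 155 bp and 2.0 kb before the row of Ywhaq, which encodes a 14-3-3 protein. They had 0.75 and −0.30, and 0.32 and −0.68, and Ywhaq 7.52 and 7.14. XLOC_017640, in Gm43672, lies 461 bp before the annotated start of Tbl1xr1, a corepressor gene that was not a row, and had 0.07 and −0.86. In these 3 loci the level was lower in siH19 by 0.93 to 1.05. XLOC_002989, in Gm47015, was higher in level but also lower in siH19 (5.77 and 4.98). Of the 15 lncRNA exon loci 6 lay within 5 kb before the start of a protein-coding gene, and 4 of these 6 were lower, against 11 of all 15.

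Some lower loci outside lncRNA exons of GENCODE also lay before the starts of genes. XLOC_009584, 1.7 kb before the 5′ end of the row of Amacr and C1qtnf3, had 0.44 in siCon and −1.47 in siH19, whereas that row was higher (7.48 and 8.18). XLOC_026488, 416 bp before the row of Cd97, an adhesion receptor gene, had 0.04 and −0.88, and its neighbour was lower too (7.38 and 6.58). XLOC_016789 lies 1.4 kb before the start of Polr3k, a polymerase III subunit gene that was not a row, and had 0.90 and −0.10. The first of these 3 loci lies in the RefSeq lncRNA gene Gm34315 and the second in Gm46046. Both belong to the class inside a gene but outside its exons in GENCODE, in which 41 of 49 loci were higher. No test of a difference between the 5′ and 3′ sides was possible with 1 value per group.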

How the data were processed

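RNA-seq was performed by the authors on 3 siCon and 3 siH19 libraries of C3H myotubes. Per the article, reads were mapped to mm10 with TopHat, and loci were assembled and compared with Cufflinks and Cuffdiff; the submitters' processing notes name TopHat 1.0.0, TopHat2 2.0.7 and Cuffdiff 2.1.1. The authors deposited log2 FPKM values, 1 per group, for the rows they called. The deposited log2 fold change and q-value (adjusted p-value) columns hold the authors' own comparison and were not used. Depth per library is unknown, so no interval, SE or test could be given. FPKM divides by length, so values of loci near fragment length depend on the length correction of the software. The number of fragments behind them is unknown.

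Starts were taken as counted from 0, since 484 of 2328 named rows start 1 base before the annotated start and 65 at it, and are printed 1-based. Spans, differences, gaps between locus edges and overlaps with GENCODE vM21 and with RefSeq genes of GRCm38.p6 (tRNA genes) were computed in Python 3.11.15 with numpy 2.4.6 and pandas 2.3.3, and tested on simulated data. A locus overlapping several classes was put in one by a fixed order, tRNA genes first. Similar genes were searched with blastn 2.17.0 (E of 1e-10, 50% of the sequence covered). Sequences are GENCODE transcripts. Some loci are not reported here.

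Loci named in the text are those that reached 5 in either group's log2 FPKM, the 10 largest differences each way among those reaching 0, those at the floor, in small RNA genes, in runs, of extreme span or distance, and their neighbours; others were chosen with their values known, as were the Y RNA and U4 sequences and the class and distance summaries. The loci and gene lists were chosen with earlier results of these data known.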

Additional observations from a re-analysis of the deposited data

How the results depend on the processing

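The loci at 1.5-fold numbered 176 higher and 39 lower in siH19. With a log2 FPKM of at least 0 required in the higher group they numbered 78 and 20, and with 1 FPKM added to both groups 77 and 11. At 2-fold 24 were lower and 153 higher. Lowering each difference by the 0.41 median of the rows with a symbol left 153 higher and 43 lower. The median difference of 1.38 became 1.17 with the level requirement, 0.44 and 1.16 with 1 and 0.1 FPKM added, and 0.96 after centring, and it kept its sign in each. A span limit of 1000 bp left 105 loci with median levels of 0.91 in siCon and 2.04 in siH19, and one of 3000 bp gave 295 loci with −1.32 and −0.57. Leaving out loci shorter than 300 bp, an alternative chosen after seeing the data, gave −1.70 and −0.66, and without the rows at the floor the siH19 median was −0.37. The median distance to a row with a symbol was 133 kb between centres, 87.4 kb to rows of at least 0, and 7.57 kb to any row. The share with the neighbour's direction was 87.7% within 10 kb and 75.4% within 100 kb. When at least 50% of a locus had to overlap, the 40 loci at an exon became 24. The cause of these changes was not tested, apart from the smaller number of loci that a stricter limit leaves.

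No paired analysis was possible because the table gives 1 value per group. For the same reason leaving out libraries was not run. The search for the polymerase III B box was not run, as it needs the genome sequence. Counting rows that share a locus once changed no count. Every difference describes 1 value per group over 3 libraries, so none can be set against the spread between cultures, and low loci are in the list only with large differences.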
